A study of Mus musculus with 2 samples.

Results

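The Iroquois homeobox genes Irx1 to Irx6 were examined for CpG methylation in mouse embryonic fibroblasts (MEFs) with normal or impaired Dnmt1, the enzyme that copies methylation onto the new DNA strand after replication. The loci were the annotated body of each gene with 10 kb to either side. They held 1135 of the 1790826 CpGs in the table. Of these, 847 lay outside the sequences CCGG and TCGA, against 996064 in the whole table, and all values below are for these 847 unless stated. The other 288 were kept apart because such CpGs read high in both libraries, also in promoters. Over the 6 loci these 288 averaged 62.3% in Dnmt1+/+ and 57.0% in Dnmt1-/- MEFs. Of the CpGs at the 6 Irx starts, the 80 in CCGG or TCGA averaged 52.9% and 53.2%, and the 325 others averaged 4.22% and 2.79%.

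Both groups were MEF lines homozygous null for trp53, which encodes p53. The Dnmt1+/+ line served as the control, and the Dnmt1-/- line was in addition homozygous for a hypomorphic Dnmt1 allele, so it is a line with reduced and not necessarily absent enzyme. Methylation was read by reduced-representation bisulfite sequencing (RRBS), in which restriction fragments rich in CpGs are treated with bisulfite, and a cytosine that still reads as cytosine counts as methylated. Each genotype had 1 library and no replicate, so every comparison is between 2 libraries and a difference cannot be assigned to the genotype apart from the cell line or the library.

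Iroquois proteins are homeodomain transcription factors of the TALE class, whose DNA-binding domain carries extra residues in a loop between helices. They pattern the neural tube, heart, limb and retina of the embryo, and in many cell types the genes are silent targets of Polycomb repressive complexes. The mouse genes lie in a pair of clusters that arose by duplication, each with its genes far apart. Promoters of such developmental genes usually lie in CpG islands, long stretches rich in CpGs that are normally unmethylated, while methylation of CpGs farther into the gene is common.

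On the NCBIM37 assembly (mm9), the chromosome 13 cluster consisted of Irx1 (chr13:72095680-72101171, minus strand), Irx2 (chr13:72766245-72771644, plus strand) and Irx4 (chr13:73397945-73407068, plus strand). The chromosome 8 cluster consisted of Irx3 (chr8:94322428-94325553, minus strand), Irx5 (chr8:94881695-94885351, plus strand) and Irx6 (chr8:95198188-95204855, plus strand). The chromosome 13 loci held 451 of the 847 CpGs and the chromosome 8 loci 396. The lincRNA gene D230002A01Rik began inside Irx3 and ran out through its upstream side, and Crnde (4933436C20Rik in the annotation) began 1676 bp upstream of the Irx5 start on the other strand.

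Stretches dense in CpGs that differed, with some for contrast, are shown first, read from the NCBIM37 sequence on the strand of the Irx gene, 5′ to 3′. In Irx5, capitals mark CpGs that were higher in Dnmt1-/- MEFs (adjusted p under 0.05, Fisher's exact test on the calls, methylated against not). The first runs from homeobox codons to the end of exon 2 (chr8:94883673-94883841), and the second is coding sequence of exon 3 (chr8:94884167-94884406).
Irx5 exon 2: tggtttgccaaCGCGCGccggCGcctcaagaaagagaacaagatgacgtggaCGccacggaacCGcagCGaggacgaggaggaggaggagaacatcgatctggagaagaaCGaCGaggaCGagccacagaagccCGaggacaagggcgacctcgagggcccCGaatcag
Irx5 exon 3: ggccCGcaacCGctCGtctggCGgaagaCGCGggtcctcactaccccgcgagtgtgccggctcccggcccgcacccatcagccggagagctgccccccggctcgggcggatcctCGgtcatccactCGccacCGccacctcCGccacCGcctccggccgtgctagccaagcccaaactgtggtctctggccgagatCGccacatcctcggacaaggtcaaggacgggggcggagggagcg

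The same marking is used for a stretch upstream of Irx3 that lies in an exon of D230002A01Rik (chr8:94329312-94329551), shown because 6 of its 13 measured CpGs were higher, and for a short stretch of Irx4 intron 1 (chr13:73401643-73401702), shown for the single CpG of Irx4 that was higher.
Irx3 upstream: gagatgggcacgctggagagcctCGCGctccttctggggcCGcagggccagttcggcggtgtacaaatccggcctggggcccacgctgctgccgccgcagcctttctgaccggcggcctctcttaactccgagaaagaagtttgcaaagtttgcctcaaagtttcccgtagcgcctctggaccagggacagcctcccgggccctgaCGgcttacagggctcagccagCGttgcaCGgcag
Irx4 intron: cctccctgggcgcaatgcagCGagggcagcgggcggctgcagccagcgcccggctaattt

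For contrast, capitals mark CpGs that were lower in Dnmt1-/- MEFs in coding sequence of Irx1 exon 2, which includes homeobox codons (chr13:72097259-72097498), and in coding sequence of Irx2 (chr13:72768737-72768976), where 3 of 18 measured CpGs were lower.
Irx1 exon 2: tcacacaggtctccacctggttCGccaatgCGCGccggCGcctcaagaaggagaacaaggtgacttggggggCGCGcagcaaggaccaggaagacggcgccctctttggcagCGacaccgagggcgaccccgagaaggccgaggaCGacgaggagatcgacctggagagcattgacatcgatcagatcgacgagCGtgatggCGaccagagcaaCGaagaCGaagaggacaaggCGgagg
Irx2 exon: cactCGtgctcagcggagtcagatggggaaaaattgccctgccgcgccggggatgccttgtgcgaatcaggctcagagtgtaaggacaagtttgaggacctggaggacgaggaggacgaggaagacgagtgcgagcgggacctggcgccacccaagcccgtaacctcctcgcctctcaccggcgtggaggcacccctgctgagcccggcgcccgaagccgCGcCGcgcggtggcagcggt

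The 250 bases before the Irx5 start (chr8:94881445-94881694) are given as an example of a promoter that read near 0 in both libraries, with capitals at its 9 measured CpGs.
Irx5 promoter: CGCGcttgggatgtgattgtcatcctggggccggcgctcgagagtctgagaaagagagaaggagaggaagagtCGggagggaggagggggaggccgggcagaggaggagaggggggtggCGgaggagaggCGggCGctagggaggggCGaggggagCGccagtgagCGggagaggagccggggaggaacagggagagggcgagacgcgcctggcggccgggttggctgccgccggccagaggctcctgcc

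Methylation of the Irx loci was already low in Dnmt1+/+ MEFs and fell less than in the table as a whole. The 847 CpGs averaged 18.4% in Dnmt1+/+ and 10.1% in Dnmt1-/- MEFs, and 74.9% of them were at 20% or less in Dnmt1+/+. Over the whole table the averages were 45.0% and 15.1%. By the exact test, 151 of the 847 Irx CpGs (17.8%) were lower in Dnmt1-/- MEFs, where 44.2% of all such CpGs in the table were lower. In the other direction, 53 (6.26%) were higher, where 0.635% of the table was. Neighbouring CpGs on a fragment share reads, so they are not independent measurements, and the test compares the 2 libraries only.

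As means over CpGs of the loci with their 10 kb flanks, both clusters were lower in Dnmt1-/- MEFs, the chromosome 8 cluster by much less. On chromosome 13 the mean went from 22.8% to 8.87%, with 119 CpGs lower and 4 higher. On chromosome 8 it went from 13.4% to 11.5%, with 32 lower and 49 higher (12.4% of that cluster). The change was thus 11.96 percentage points larger in the chromosome 13 cluster as a mean over CpGs. Pooled over all calls, the chromosome 13 cluster went from 20.9% (95% Wilson interval 20.5 to 21.4) to 9.60% (9.20 to 10.01), and the chromosome 8 cluster went up, from 9.58% (9.23 to 9.95) to 10.9% (10.5 to 11.3). Intervals cover counting error only, since reads made by PCR are not independent molecules.

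The small chromosome 8 change depended on which CpGs were taken and how they were weighted. From -1.95 points it went to -0.345 with 5 kb flanks and to -0.647 at a depth of at least 20 in both libraries, and in gene bodies alone it turned to 2.82 points higher. When every 1 kb tile with any measured CpG counted once, the change was -20.4 points on chromosome 13 and -17.9 points on chromosome 8, a difference of 2.55 points. With tiles of at least 5 CpGs the difference was again wide, with -17.1 and -1.86 points. The chromosome 8 loci had 9 tiles with fewer CpGs, holding 20 CpGs in all, and these went from a mean of 83.6% to 35.4%. The sparsely measured parts of the chromosome 8 loci were therefore lower in Dnmt1-/- MEFs, and the small mean change of that cluster came from tiles with many measured CpGs. Leaving out Irx5 changed the chromosome 8 value from -1.95 to -5.97 points, and leaving out Irx1 changed the chromosome 13 value from -13.9 to -9.64 points.

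Sequencing depth also differed between the clusters. The chromosome 13 loci had 30646 calls in Dnmt1+/+ and 20285 in Dnmt1-/- MEFs, a ratio of 0.662, and the chromosome 8 loci had 25550 and 25863. Over all of its CpGs chromosome 13 had the lowest such ratio of the 19 autosomes, 0.755, where the range was 0.755 to 1.31. The part of this gap in the cluster contrast was not tested. The Irx CpGs were deeper than the table, with a median of 53 calls in Dnmt1+/+ and 43 in Dnmt1-/- MEFs against 33 in both, and a CpG with no methylated call at those Irx depths allows up to 5.66% and 6.98% methylation (3 calls).

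**Figure D1:**
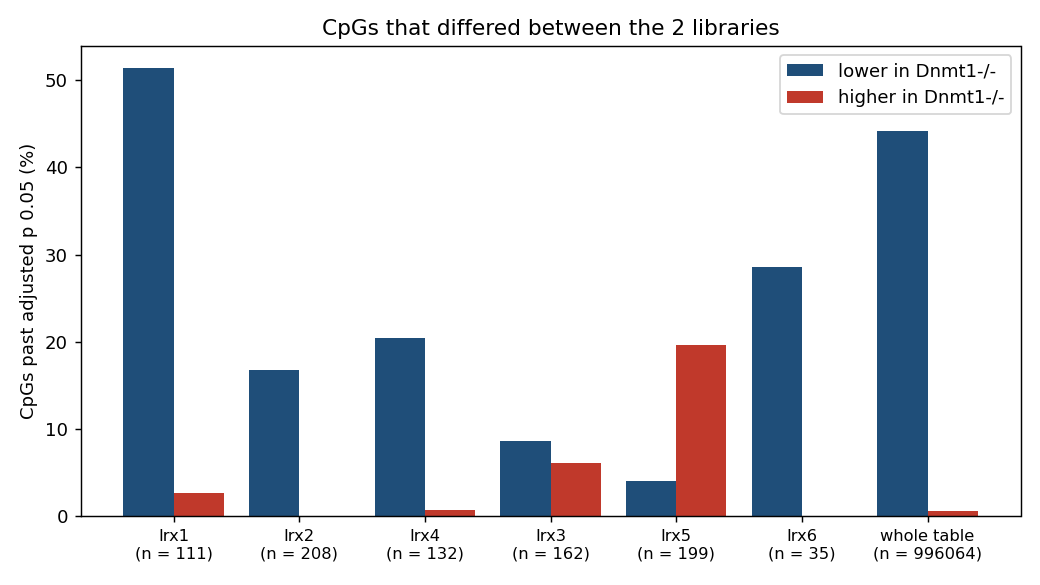
Share of CpGs (%) that were lower (blue) or higher (red) in Dnmt1-/- MEFs by Fisher's exact test at an adjusted p under 0.05, for each Irx locus and for the whole table, with the number of CpGs (n) under each name. Irx1 was the only locus with a share of lower CpGs above that of the table (51.4% against 44.2%), and Irx5 the only one with more CpGs higher (19.6%) than lower (4.02%).

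Among the genes, Irx1 had the highest level in Dnmt1+/+ MEFs and the widest fall. Its 111 CpGs averaged 38.3% and 11.4%, with pooled levels of 31.9% (30.8 to 33.0) and 9.77% (8.95 to 10.7). For Irx6, with 35 CpGs, the averages were 23.8% and 11.9%, and 10 CpGs were lower and none higher. The Irx6 change of -11.95 points became -5.28 in the gene body alone and -19.1 with each 1 kb tile counted once. Irx2 averaged 19.1% and 9.08% over 208 CpGs, with 35 lower and none higher. Irx4 averaged 15.5% and 6.41% over 132 CpGs, with 27 lower and 1 higher. Irx3 averaged 15.1% and 10.4% over 162 CpGs, with 14 lower and 10 higher, but its pooled level was 13.7% (13.01 to 14.4) in Dnmt1+/+ and 14.3% (13.6 to 15.0) in Dnmt1-/- MEFs, the opposite sign with overlapping intervals, and the mean change of -4.68 points became -0.873 in the gene body alone and -24.4 with each 1 kb tile counted once. Irx5 was the lowest in Dnmt1+/+ MEFs and the only locus whose mean was higher in Dnmt1-/- MEFs, with 10.2% and 12.2% over 199 CpGs, 8 lower and 39 higher. With each 1 kb tile counted once, the Irx5 locus was instead lower, with a change of -11.4 points, since its flanks then weigh more. In its gene body alone the Irx5 change was 7.41 points, against 2.04 with the flanks. Tiles counted once also widened the changes of Irx2, from -9.97 to -15.6 points, and of Irx4, from -9.13 to -15.9. In Dnmt1+/+ MEFs the pooled levels of Irx3 and Irx4 (13.3 to 14.7) had overlapping intervals, as did those of Irx4 and Irx6 (14.1 to 17.0). The assay reached from 12.2% of the CpGs of the Irx6 locus to 41.8% of those of the Irx2 locus, CCGG and TCGA included. The part of this in the order of the loci was not tested.

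**Figure D2:**
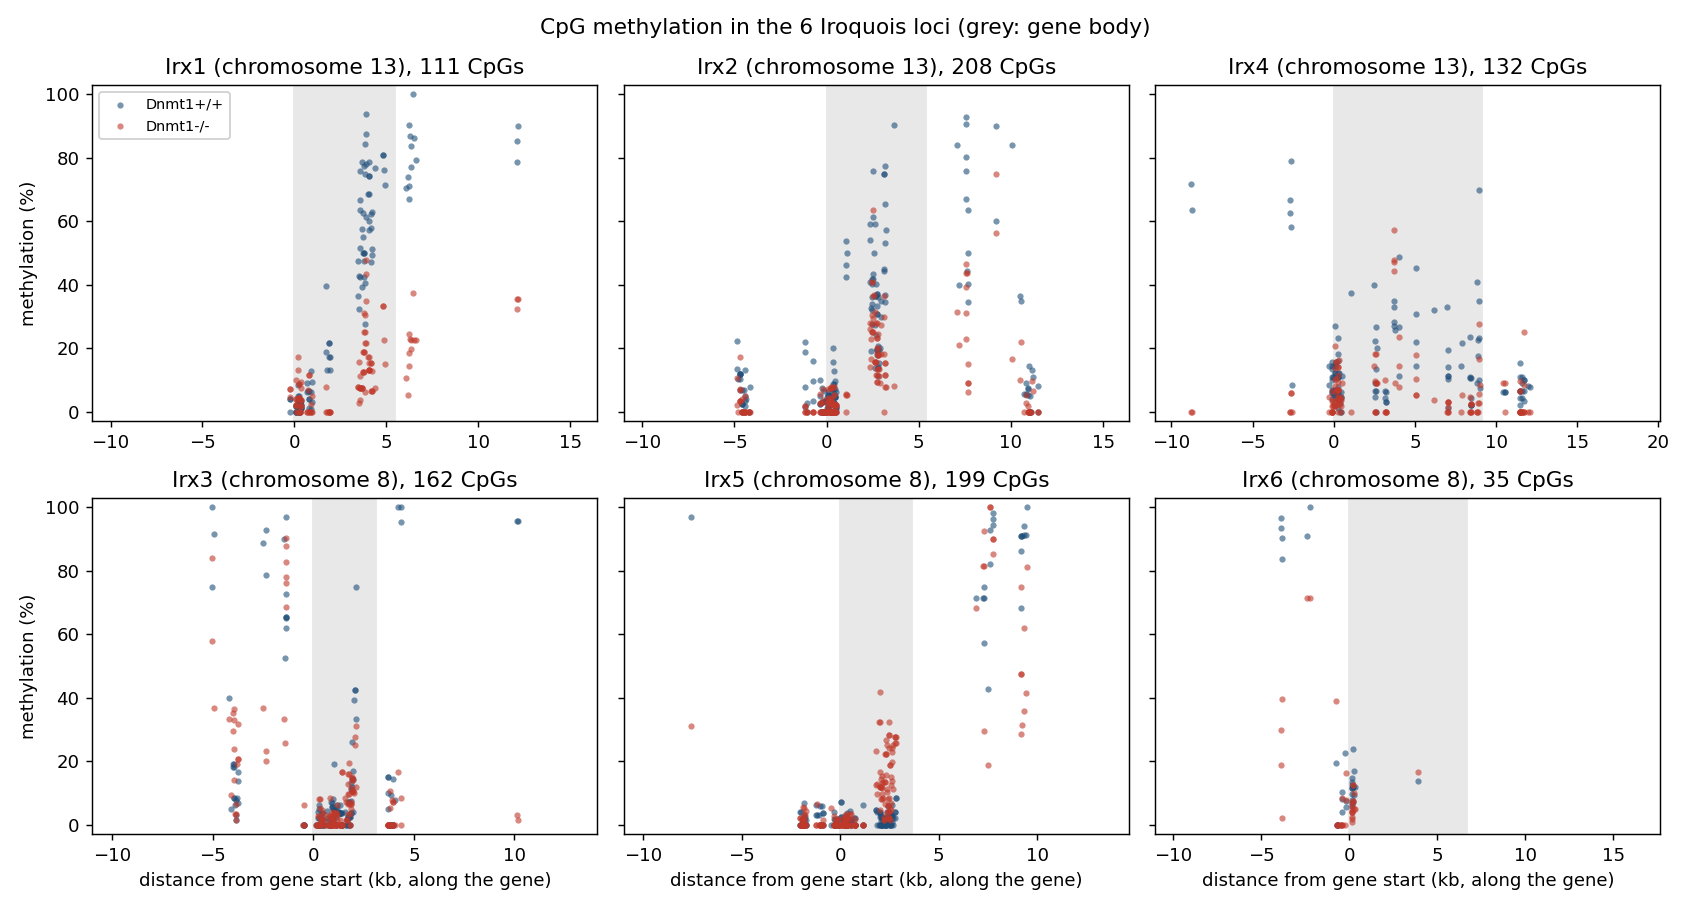
Methylation (%) of each CpG outside CCGG and TCGA against its distance from the gene start in kb, along the direction of the gene, for the 6 Irx loci in Dnmt1+/+ (blue) and Dnmt1-/- (red) MEFs, with the gene body in grey. CpGs near every start sit low in both libraries, blue points rise inside the body of Irx1 and Irx2, and in Irx5 the red points stand above the blue ones in the later part of the gene.

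The promoters, taken as 1 kb to either side of each start, were low in both lines. Their means in Dnmt1+/+ MEFs ran from 1.25% (Irx5, 67 CpGs) to 9.50% (Irx4, 49 CpGs), and in Dnmt1-/- MEFs from 0.749% (Irx5) to 5.95% (Irx6, 28 CpGs). None of the 6 changed by 10 points or more. Among 12837 protein-coding promoters with at least 5 CpGs, 14.6% were lower by that much and 0.647% higher, and the median change was -1.34 points, close to the median of -1.31 points over the 6 Irx promoters. Irx4, a gene of ventricular heart muscle, had 7 CpGs lower in its promoter, with pooled levels of 9.87% (9.11 to 10.7) and 5.87% (5.11 to 6.73). Irx6, expressed in the retina, had 6 lower, with 10.5% (9.34 to 11.9) and 4.94% (4.10 to 5.94). At the Irx2 promoter the mean went from 3.85% to 1.73%.

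Irx3 and Irx5 are expressed together in the developing heart and limb, and their promoters were among the least methylated. Irx3 averaged 1.75% and 1.60% over 52 CpGs, and no CpG passed the test in either gene's promoter. The sign of the small Irx3 difference turned to 0.582 points higher with 500 bp either side. At 1 kb either side, Irx1 was the only promoter with a higher mean in Dnmt1-/- MEFs, 3.12% and 4.17% over 43 CpGs, a change of 1.05 points that became 2.48 with 500 bp. In it, 3 CpGs were higher and 1 lower. The widest of the 3, at chr13:72100401, had 1 of 78 calls methylated in Dnmt1+/+ and 5 of 43 in Dnmt1-/- MEFs (adjusted p = 0.0481, Fisher's exact test), so each of these rests on few methylated calls.

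Exonic CpGs outside the promoters of Irx1, Irx2 and Irx4 went from a mean of 41.7% to 14.7%, with 60 of 121 lower and none higher. On chromosome 8 the genes differed. Such CpGs of Irx3 went from 4.91% to 5.80%, with 1 of 54 lower and 2 higher, and those of Irx5 from 2.10% to 15.7%, with none of 60 lower and 33 higher. The downstream flanks had lower means in both clusters, from 35.5% to 13.4% over 69 CpGs on chromosome 13 and from 54.2% to 33.1% over 41 CpGs on chromosome 8.

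Irx1 held a sharp step inside the gene. Exon 1, which contains the start, read 2.02% and 4.38% over 28 CpGs. Exon 2, which encodes the homeodomain, averaged 59.7% in Dnmt1+/+ and 15.4% in Dnmt1-/- MEFs over 42 CpGs, of which 36 were lower. In the 10 kb past the gene's end, 14 CpGs averaged 81.5% and 23.1%, and all 14 were lower. The tile of the locus with the widest change lay there, about 6.67 kb from the start, with a mean of 81.6% and 21.0% over 10 CpGs. Another in exon 2 and beyond, about 4.67 kb from the start, went from 65.2% to 15.9%.

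Irx2, a neighbour of Irx1 with an overlapping embryonic expression pattern, differed in extent between parts of the gene. The 42 CpGs of the exon at chr13:72768705-72769418 averaged 36.7% and 21.5%, and 8 were lower. The shown part of it went from 38.0% to 24.3%. The 4 CpGs of exon 2 went from 48.1% to 4.02%, and all 4 were lower. The last measured CpG of the gene, at chr13:72769922, went from 112 of 124 calls (90.3%) to 6 of 74 (8.11%; adjusted p = 9.00e-31, Fisher's exact test). A tile 7.26 kb past the start went from 63.6% to 26.6%, with 10 of 12 CpGs lower. A tile about 11.3 kb past the start was low in both, with 5.37% and 1.62%. No CpG was measured in the exon with the Irx2 homeobox codons.

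Irx4 differed mostly downward, with 20.5% of its 132 CpGs lower, where 44.2% of the table was. Its single higher CpG, in intron 1, made up 0.758% of them, near the 0.635% of the table. A tile about 2.44 kb upstream of the start went from 55.0% to 2.35% over 5 CpGs, of which 4 were lower. In exon 5, where the homeobox codons lie, 6 CpGs went from 11.3% to 1.85%. A tile of intron 1 about 3.56 kb from the start read 19.9% and 20.1%, with 3 CpGs lower and 1 higher. In the stretch of it shown above, the CpG in capitals went from 51 of 146 calls (34.9%) to 62 of 108 (57.4%; adjusted p = 0.00181, Fisher's exact test). A CpG only 26 bases downstream went the other way, from 19 of 74 calls (25.7%) to 5 of 55 (9.09%; adjusted p = 0.0489, Fisher's exact test).

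Irx6 was reached at few places. Its CpGs lay around the start and in the upstream flank, with a single one in intron 4, and no CpG was measured in the exon with its homeobox codons. The 6 upstream CpGs went from 92.6% to 38.8%, and 4 were lower. At chr8:95194392 the change was from 26 of 31 calls to 1 of 48 (adjusted p = 2.14e-13, Fisher's exact test), while 2 CpGs nearer the gene, at 90.9% and 100% on 11 and 12 calls in Dnmt1+/+, read 71.4% each on 14 calls in Dnmt1-/- MEFs and did not pass the test.

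Irx3 combined an unmethylated gene start with a methylated upstream side. Exon 1 read 1.40% and 1.64%, and exon 2, which holds the homeobox codons, read 4.71% and 4.86% over 67 CpGs. The 5 CpGs of intron 2 averaged 46.5% and 21.1%. Downstream of the gene, 21 CpGs went from 26.8% to 3.21%, with 5 lower.

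On the upstream side of Irx3, outside the promoter, CpGs differed in both directions. The 30 CpGs averaged 43.3% and 37.4%, with 7 lower and 8 higher. Of the 7 lower ones, 5 lay outside the 2 tiles with at least 5 CpGs, and they read between 78.6% and 92.9% in Dnmt1+/+ and between 20% and 36.8% in Dnmt1-/- MEFs. The 2 tiles, in exons of D230002A01Rik, had higher means in Dnmt1-/- MEFs. The tile about 0.948 kb upstream, with 2 CpGs lower and 2 higher, read 43.7% and 46.9% over 11 CpGs, but 4 of the 11 were promoter CpGs at 0% in Dnmt1+/+ MEFs, so these means are not those of the flank alone. The 4 CpGs that differed lay within 61 bases. The widest rise, at chr8:94326892, went from 42 of 64 calls (65.6%) to 74 of 82 (90.2%; adjusted p = 0.00127, Fisher's exact test). At chr8:94326930 it went from 62 of 64 (96.9%) to 68 of 82 (82.9%; adjusted p = 0.0190, Fisher's exact test). Farther out, the tile about 3.95 kb upstream averaged 12.6% and 20.1% over 16 CpGs, with pooled levels of 12.2% (10.7 to 13.9) and 22.4% (20.2 to 24.6). Its 6 higher CpGs are those in capitals in the sequence shown. The most separated, at chr8:94329525, went from 16 of 188 calls (8.51%) to 46 of 140 (32.9%; adjusted p = 2.64e-07, Fisher's exact test).

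Irx5, which encodes a factor needed for cardiac repolarisation and for bipolar cells of the retina, was nearly unmethylated at all measured CpGs of the gene in Dnmt1+/+ MEFs and partly methylated in its later part in Dnmt1-/- MEFs. Up to the start of exon 2, the 110 CpGs of the upstream flank, exon 1 and intron 1 averaged 2.17% and 1.11%, with none higher and 1 lower. The lower CpG, far upstream at chr8:94874100, went from 97.1% to 31.25% and so weighs on both means. From exon 2 to the end of the gene, 69 CpGs averaged 1.96% and 14.9%. Of these, 64 had a higher value in Dnmt1-/- MEFs, 38 passed the test as higher and none as lower. Single values lay between 0 and 8.51% in the Dnmt1+/+ library and between 1.35% and 41.9% in the Dnmt1-/- library, so the ranges of the 2 libraries overlapped between 1.35% and 8.51%.

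The change covered exons and the intron between them. Exon 2 went from 1.77% (1.26 to 2.49) to 13.4% (11.8 to 15.3) in pooled calls, with 13 of 20 CpGs higher. Intron 2 went from 1.16% (0.589 to 2.27) to 7.15% (5.57 to 9.13), with 5 of 9 higher. Exon 3 went from 1.92% (1.49 to 2.47) to 16.9% (15.6 to 18.3), with 20 of 40 higher. By contrast, exon 1 read 1.26% (0.918 to 1.72) and 0.931% (0.664 to 1.30) over 38 CpGs. The CpGs that were higher began 1835 bp and ended 2798 bp from the start, where the last measured CpG of the gene lay at 2811 bp. The 39 higher CpGs of the locus fell on 10 of its 35 stretches between neighbouring CCGG or TCGA sites, so they did not come from a single restriction fragment. At many CpGs all 4 counts were even, including 168 of the Irx CpGs (19.8%), and whether both mates of a read pair were counted there could not be told from the table. If they were, the calls printed for such CpGs are up to double the reads behind them, and their intervals are too narrow and their p-values too small. With calls halved there, 31 of the 199 CpGs of the Irx5 locus were higher, where 0.540% of the table was. Thinned to 10 calls in each library, no Irx CpG passed as higher, a depth at which only wide differences can pass.

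**Figure D3:**
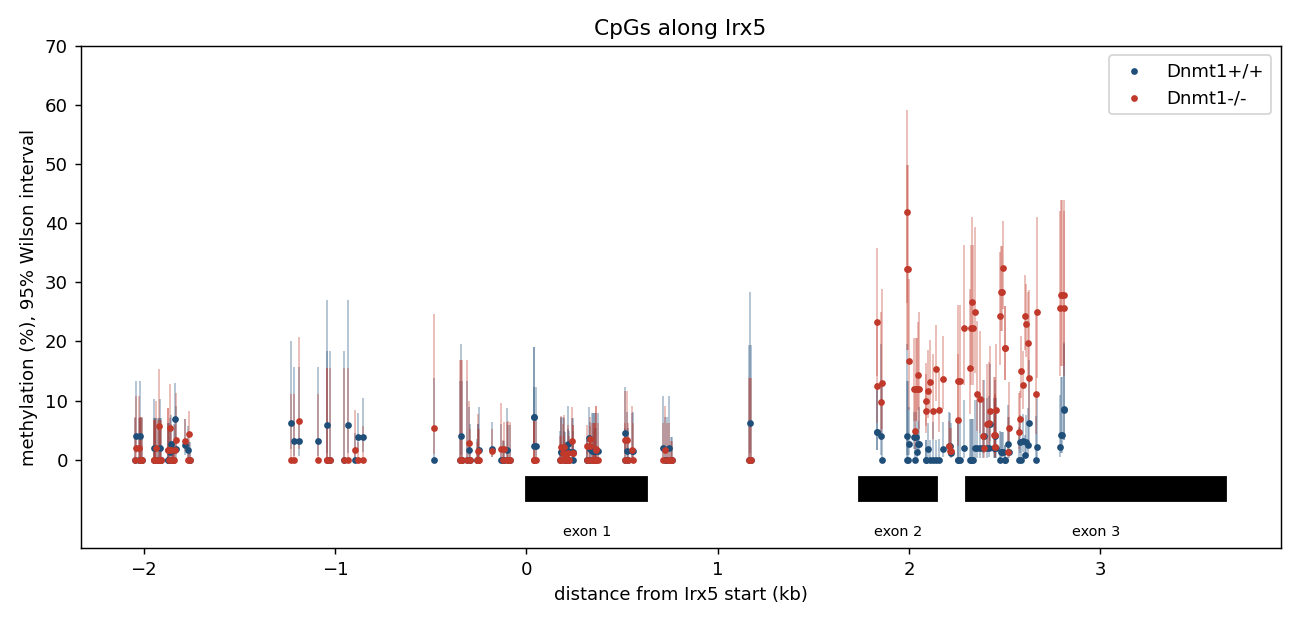
Methylation (%) of each CpG along Irx5 with its 95% Wilson interval, against the distance from the gene start in kb, in Dnmt1+/+ (blue) and Dnmt1-/- (red) MEFs, with the exons as black boxes. Both libraries stay near 0 through exon 1, while from exon 2 on the red points spread up to 41.9% and the blue ones stay at 8.51% or lower.

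In the stretch of exon 2 shown, 12 of 16 measured CpGs were higher. The first capitals there are the CpGs at the homeobox codons. At chr8:94883686 the value was 1 of 25 calls (4.0%) in Dnmt1+/+ and 13 of 31 (41.9%) in Dnmt1-/- MEFs (adjusted p = 0.00420, Fisher's exact test). In the stretch of exon 3, again 12 of 18 were higher. The strongest was at chr8:94884188, with 2 of 150 calls (1.33%) and 48 of 148 (32.4%; adjusted p = 3.23e-13, Fisher's exact test). Other CpGs of the same stretch stayed low, down to 1.35% in Dnmt1-/- MEFs.

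The 2 tiles that hold this part of Irx5 went from 1.56% to 13.7% and from 2.25% to 15.7%. Over the whole table, CCGG and TCGA left out, 14468 tiles were under 5% in Dnmt1+/+ MEFs and 65 of them (0.449%) were higher by 10 points or more. The Irx loci held 11 such tiles, and these 2 were the ones that were higher by that much.

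A short run of bases was common to the homeobox stretches of Irx1 and Irx5 shown above, and its CpGs differed in opposite directions. The shared run is gcgcgccggcgcctcaagaa, at chr8:94883685-94883704 in Irx5 and chr13:72097450-72097469 in Irx1. It has 4 CpGs, of which 3 lay outside CCGG and were measured in each gene. In Irx5 these 3 averaged 2.19% in Dnmt1+/+ and 30.3% in Dnmt1-/- MEFs, and all 3 were higher. In Irx1 they averaged 49.0% and 9.10%, and all 3 were lower. This comparison was chosen after the values were seen, and the 3 CpGs had between 16 and 78 calls.

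Past the Irx5 gene, 2 of 3 highly methylated tiles had similar means in both libraries, though single CpGs in them differed both ways. The tile about 6.81 kb from the start read 69.3% and 70.7% over 5 CpGs. In it, chr8:94888975 went from 75.0% to 92.6%, the only CpG of the tile that passed the test, and chr8:94888988 from 57.1% to 29.6%. The next tile, about 7.81 kb from the start, read 84.5% and 80.7% over 6 CpGs, with pooled levels of 88.2% (83.6 to 91.7) and 85.9% (81.4 to 89.4). No CpG of it passed the test, but chr8:94889181 went from 42.9% to 18.75% and chr8:94889290 from 82.1% to 100%. That tile's Dnmt1-/- level was above that of 99.0% of the table's tiles at 80% or more in Dnmt1+/+ MEFs, whose median in Dnmt1-/- MEFs was 32.6%. The tile after it fell from 86.9% to 48.7%, with 5 of 6 CpGs lower.

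**Figure D4:**
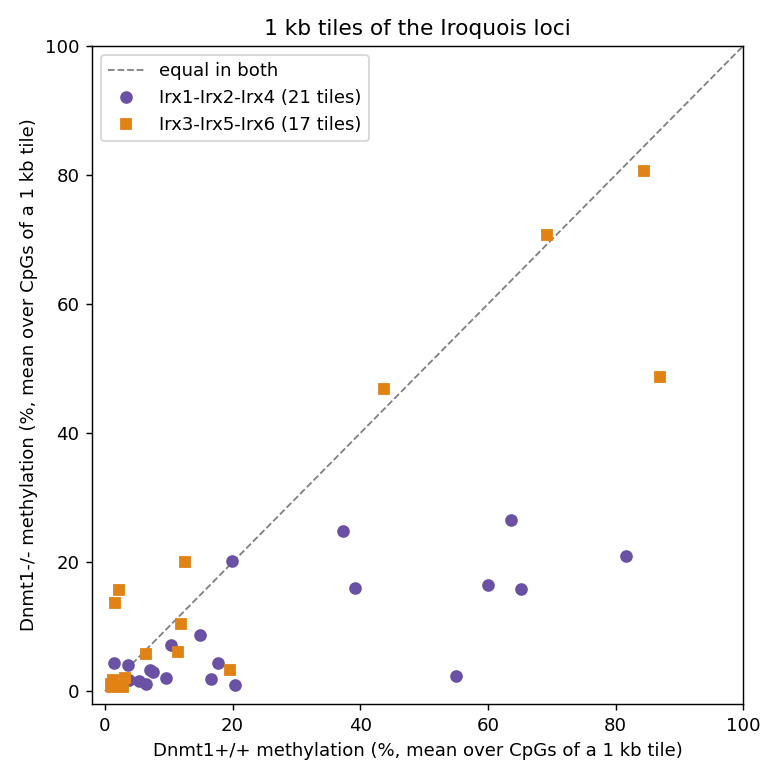
Mean methylation (%) over the CpGs of each 1 kb tile with at least 5 CpGs in Dnmt1+/+ (horizontal) and Dnmt1-/- (vertical) MEFs, for 21 tiles of the Irx1-Irx2-Irx4 cluster (circles) and 17 of the Irx3-Irx5-Irx6 cluster (squares), with the line of equal values dashed. Circles that were above 30% in Dnmt1+/+ all lie well under the line, while squares lie on both sides of it and 1 square at 84.5% stays at 80.7%.

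Over the 38 tiles, 6 were lower by 25 points or more, 5 of them on chromosome 13, and none was higher by that much. Among all tiles, 48.1% were lower by 25 points and 0.334% higher. The median change was -3.75 points over the Irx tiles and -21.4 points over all tiles.

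CpGs were also sorted by their level in Dnmt1+/+ MEFs, which by construction limits which way a CpG can differ, so each class is set beside the same class of the table. Of 634 Irx CpGs at 20% or less, 49 (7.73%) were higher in Dnmt1-/- MEFs, where 1.05% of such CpGs in the table were, and 21 (3.31%) were lower, near the 2.83% of the table. Irx5 held 38 of the higher ones, Irx3 8 and Irx1 3. The 50 CpGs at 80% or more averaged 91.2% and 41.9%, and over the table such CpGs averaged 94.6% and 32.0%. The 19 of them on chromosome 13 were left at 32.5% and the 31 on chromosome 8 at 47.6%. Within chromosome 8, the 11 of Irx3 were left at 29.4%, below the table, the 6 of Irx6 at 38.8% and the 14 of Irx5 at 65.6%. On chromosome 13 the low CpGs went from 6.42% to 3.67%, with 16 lower and 3 higher, and on chromosome 8 from 3.16% to 5.85%, with 5 lower and 46 higher.

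CpGs were sorted by CpG density as well. Where fewer than 10 CpGs lay within 100 bp of a CpG, the mean was lower in both clusters, from 37.6% to 9.81% on chromosome 13 and from 53.2% to 28.6% on chromosome 8. Where 20 or more did, the chromosome 13 loci went from 11.3% to 6.98% and the chromosome 8 loci from 2.44% to 4.66%. In the table such dense CpGs went from 4.29% to 2.59%. Of the 178 dense CpGs on chromosome 8, 17 were higher (9.55%, against 0.992% of dense CpGs in the table). Almost all of the 17 lay in exons 2 and 3 of Irx5. Another 5 (2.81%, against 4.90% in the table) were lower, all in Irx6, so the rise was not shared by the whole cluster.

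The stretch around each start was followed outward until the next 5 CpGs in a row averaged over 50%. The edge is thus set by that average, and CpGs just past it can still be low. In Dnmt1+/+ MEFs the stretch spanned 3.71 kb at Irx1, 7.31 kb at Irx2, 12.1 kb at Irx4, 4.44 kb at Irx3 and 4.84 kb at Irx5. Some of these edges lay where measured CpGs ran out, so the spans are partly limits of measurement. The Irx1 upstream flank held no measured CpG, and a CpG past that edge, at chr13:72101420, read 0%. Past the downstream edge of Irx4, CpGs still read 8% (chr13:73409897) and 7.69% (chr13:73410012). Past 2811 bp at Irx5, the next measured CpG lay 6872 bp from the start. At Irx6, where few CpGs were measured away from the start and low ones lay past both edges, the extent could not be read. In Dnmt1-/- MEFs no such edge was met within 100 kb on either side of Irx1, Irx2 and Irx4, but these windows held gaps without a measured CpG of up to 39.8 kb, 22.4 kb and 79.3 kb, in which none could have been seen. An edge was met in both libraries at 3 places. It was at the same CpG 0.476 kb upstream of the Irx3 start, and at 2.81 kb in Dnmt1+/+ and 2.80 kb in Dnmt1-/- MEFs downstream of the Irx5 start. Downstream of the Irx3 start it lay at 3.96 kb in Dnmt1+/+ and at 53.9 kb in Dnmt1-/- MEFs, with a gap of up to 19.6 kb in between.

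Promoters of the other TALE homeobox genes (the Meis, Pbx, Pknox and Tgif genes) and of genes beside the clusters were read the same way. Of 10 other TALE promoters with at least 5 CpGs, none changed by 10 points. Among 9 neighbours, Mmp2, which encodes a matrix metalloproteinase and lies beyond Irx6, went from 12.3% to 24.7% over 15 CpGs, with pooled levels of 10.99% (9.21 to 13.1) and 19.9% (17.7 to 22.2) and 2 CpGs higher, and none was lower by 10 points. The Crnde promoter, next to Irx5, stayed at 1.48% and 0.960%.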

How the data were processed

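RRBS libraries were compared from 1 Dnmt1+/+ and 1 Dnmt1-/- MEF line, grouped by the genotype in the labels. The submitters' processing notes name Bismark and mm9. The deposited depth is the authors' count of methylation calls at each CpG, and the deposited percent is the share of those calls that were methylated. CpGs with under 10 calls in either library are absent from the table, and all listed positions fell on a CG of NCBIM37. The products of percent and depth were whole (tolerance 0.001) and gave the methylated calls. Total calls were 74636195 and 78401157.

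Loci, promoters and exons came from GENCODE vM1 on NCBIM37. Means count each CpG once. Single CpGs were compared by Fisher's exact test (two-sided), Benjamini-Hochberg adjusted over all 1790826 CpGs (threshold 0.05), and the code was tested on simulated data. Tiles were 1 kb with at least 5 CpGs. CpGs of a tile or locus share reads and were given no joint p-value. Members and gene lists were chosen with earlier results of these data known. All 6 genes are named. Tiles were picked by the largest falls and rises per cluster and the highest Dnmt1-/- level among those at 80% or more in Dnmt1+/+, CpGs by the largest rise per gene, and listed promoters by a change of 10 points. Picked tiles not named above began at chr13:72100001 (3.65% to 4.13%), chr13:72101001 (1.39% to 4.31%), chr8:94321001 (19.6% to 3.30%) and chr8:95198001 (11.5% to 6.05%). Other CpGs and tiles, and the shown sequences, were picked after their values were seen. Alternatives covered depth, flank, averaging, thresholds and tile size. Python 3.11.15, numpy 2.4.6, pandas 2.3.3 and numba 0.67.0 were used.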

Additional observations from a re-analysis of the deposited data

How the results depend on the processing

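No paired analysis was possible because neither line had a second library. Changes are Dnmt1-/- minus Dnmt1+/+ in percentage points, for all 6 loci, the chromosome 13 cluster, the chromosome 8 cluster and the difference between clusters, in that order. They were -8.31, -13.9, -1.95 and -11.96 as means over CpGs. With all CpGs, CCGG and TCGA included, all 6 loci, chromosome 13 and the difference gave -7.55, -12.1 and -9.71. At a depth of at least 20 in both libraries all 6 loci and the clusters gave -6.73, -12.5 and -0.647. With 5 kb flanks all 6 loci, chromosome 8 and the difference gave -7.43, -0.345 and -13.4. In gene bodies alone these 3 were -6.21, 2.82 (a change of sign) and -16.2. Pooled calls gave -5.46, -11.3 and 1.30 (a change of sign) for all 6 loci and the clusters, and 0.586 for Irx3 alone, also a change of sign. Tiles counted once gave -19.3, -20.4, -17.9 and -2.55, and -11.4 for Irx5 alone, a change of sign. Tiles with at least 5 CpGs, an alternative chosen after seeing the data, gave -10.3, -17.1 and -15.2 for all 6 loci, chromosome 13 and the difference. Genes counted once gave -15.4, -4.86 and -10.5 for the clusters and the difference. Leaving genes out was also chosen after seeing the data: without Irx5 the chromosome 8 value was -5.97, the difference -7.93 and the count of higher CpGs 14, and without Irx1 the chromosome 13 value was -9.64, the difference -7.70 and the count of lower CpGs 94.

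The 53 higher CpGs became 7 when a difference of 25 points was also required, and 0 of them and 32 lower ones were called at 10 calls a library, the lower count being 151 at full depth. Halving even counts, chosen after seeing the data, gave 43 higher and 136 lower of the 847. At that setting 0.540% of the table was higher and 42.4% lower. Lower tiles numbered 6 of 38 at 25 points, 2 of the 38 at 50 points, and 11 at 25 points with all CpGs. The share of all tiles of the table was not counted at the last 2 settings. Dnmt1-/- levels of CpGs low, middle and high in Dnmt1+/+ were 4.85%, 20.7% and 41.9%. They were 4.06%, 17.0% and 45.8% with limits of 10% and 90%, 5.29%, 37.5% and 63.6% with all CpGs, and 5.35%, 22.6% and 38.0% at a depth of at least 20. By position, all CpGs gave -9.13 in exons and -16.8 in downstream flanks, and promoters of 500 bp either side gave -7.51 in introns. The Irx3 promoter changed sign with 500 bp (0.582) and with all CpGs (0.298). For these shifts the cause was not tested, beyond the different CpGs and weights that each setting uses. Depth limits what a CpG can show: at the lowest depth of 10, 0 methylated calls allow up to 30% methylation.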
